A study of Homo sapiens with 2 samples.

Results

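Lysosomes are the acidic compartments in which cells break down proteins, glycans and lipids. Their lumen holds soluble hydrolases that carry a mannose 6-phosphate tag for delivery, their limiting membrane is lined by heavily glycosylated proteins such as LAMP1 and LAMP2, and a proton pump, the vacuolar ATPase, keeps the lumen acidic. Many of these genes are known to share an E-box-like promoter element that is bound by TFEB, TFE3 and MITF. The set described here holds 43 such genes, found by Entrez gene identifier among 16085 listed genes and loci. They were chosen by name, with earlier results of these data known. CD68, a glycoprotein of the LAMP family that is widely used as a macrophage marker although other cells also make it, is one of the 43, and the question asked was whether it moved alone or with the other lysosomal genes.

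RNA was sequenced after poly(A) selection from 2 libraries of cells labelled MDA-MB-231, 1 labelled shCtrl as the control and 1 labelled shZEB1. The second carries a knockdown of the zinc-finger repressor ZEB1, which silences epithelial genes. MDA-MB-231 is a line from a human triple-negative breast carcinoma, and the study sought what links ZEB1 in the tumour cells to an M2-like state of macrophages. The sources used here do not give the hairpin sequences, the vector or how cells were selected. With 1 library per group there was no replicate and no test, so every difference is one between 2 libraries, with no measure of how cultures vary.

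Depth was similar, with 8740584 assigned reads in shCtrl and 8441491 in shZEB1. ZEB1 itself was at an FPKM (fragments per kilobase of gene, scaled to library depth) of 0.88 from 46 reads in shCtrl and 0.31 from 15 reads in shZEB1, a read ratio of 0.338 (0.175 to 0.616). Ranges in parentheses after a read ratio are 95% exact binomial intervals on reads scaled to the library totals and cover counting error only. The line label was not borne out by marker genes. Of 12 melanocyte markers 11 reached an FPKM of 10 in each library, against 6 of 10 markers of basal-type breast lines. OCA2 of the first list and KRT19 of the second were in neither file. The melanocyte markers that were listed ranged in FPKM from PMEL (703 in shCtrl and 405 in shZEB1) to RAB27A (14.4 and 16.6). The breast-line markers that were listed ranged from VIM (1946 in shCtrl and 1695 in shZEB1) to EGFR (0.52 and 0.65). Differences below are given as log2((FPKM shZEB1 + 1)/(FPKM shCtrl + 1)), called the log2 ratio, which is negative where shZEB1 is lower. A gene counts as measured at an FPKM of at least 1 in either library, a level that ZEB1 did not reach even in shCtrl. It counts as 2-fold lower or higher where the log2 ratio reaches -1 or 1 and the read interval excludes 1.

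All 43 lysosomal genes were listed in both libraries, and 42 of them were measured. CTSK, a cysteine protease best known from osteoclasts, was the exception, with 9 reads (FPKM 0.58) in the control and 7 reads (0.47) in the knockdown. The other members were well expressed. An FPKM of 10 was reached by 39 of the 43 in shCtrl and by 37 in shZEB1, and the median measured member had an FPKM above that of 85.8% of the genes listed in shCtrl. Most members were slightly lower in shZEB1, and 2 stood clear of the rest. CD68 and NEU1 were 2-fold lower, a share of 4.76% where 1.61% of all 12274 measured genes and loci met the same rule, and 0 members were 2-fold higher (0.937% of all measured genes and loci). In either direction the background was 2.55%. With the limit at 1.5-fold the members called were again CD68 and NEU1, still 4.76%. Of all measured genes and loci 5.41% were then lower and 4.98% higher. By FPKM without the pseudocount, FUCA1 (1.52-fold) and SMPD1 (1.51-fold) were also past 1.5-fold lower, with read intervals below 1.

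**Figure D1:**
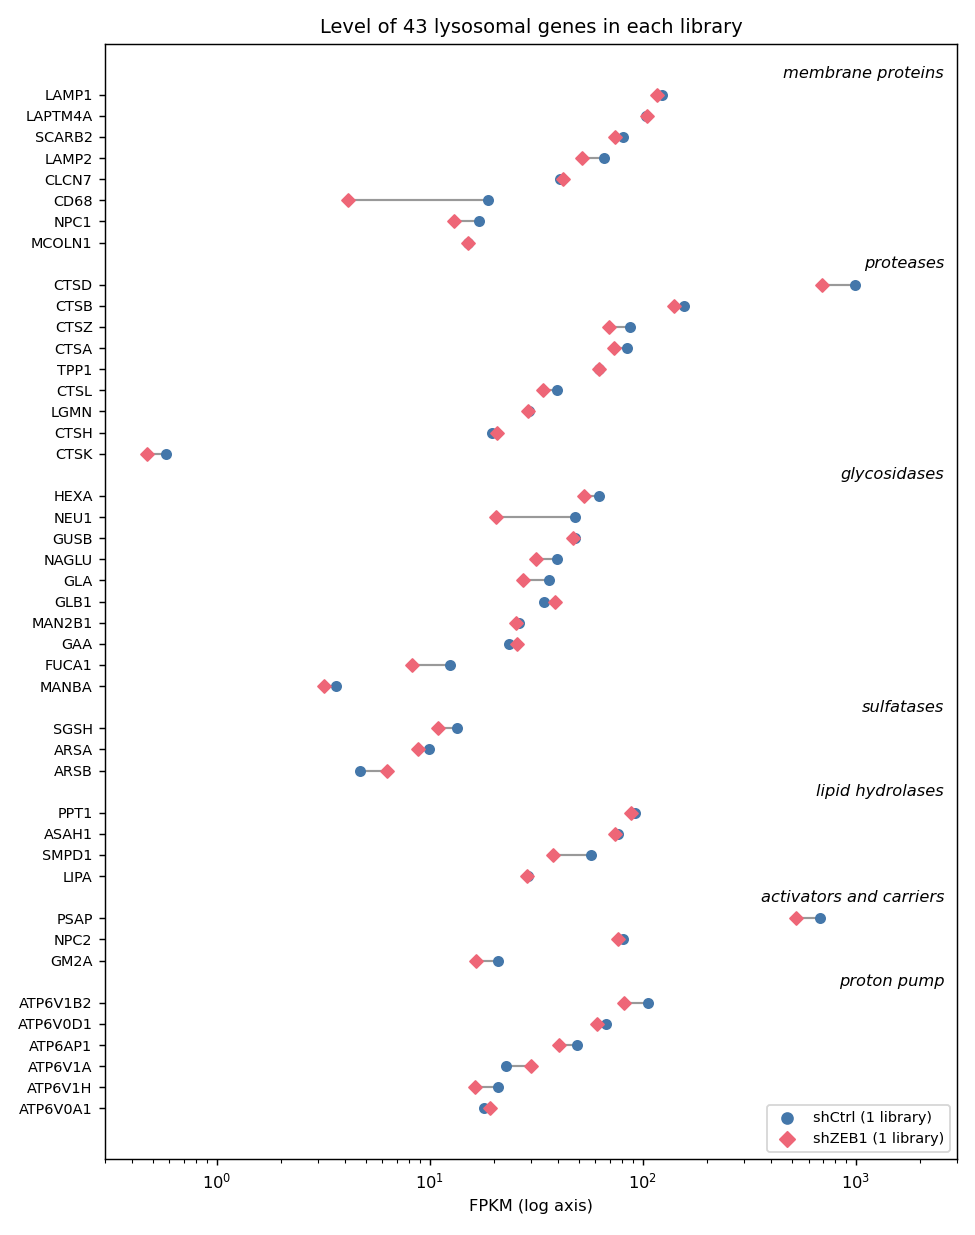
FPKM of the 43 lysosomal genes on a log axis, grouped by role, with a circle for the shCtrl library and a diamond for the shZEB1 library, joined by a line. CD68 and NEU1 have the longest lines among measured genes, while CTSD and PSAP are the most abundant members in both libraries.

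CD68 was the member that differed most. It (Entrez Gene 968, chr17:7579638-7582111 on GRCh38) was at an FPKM of 18.7 (296 reads) in the control and 4.12 (63 reads) in the knockdown. The level was 4.53-fold lower in shZEB1, and the read ratio was 0.22 (0.165 to 0.29). Its log2 ratio of -1.94 was matched or passed on the low side by 22 of the 12274 measured genes and loci, CD68 included, which is 0.179%. The median of the other 41 measured members was -0.15, and CD68 minus that median was -1.79. CD68 made up 0.516% of the summed FPKM of the 43 genes in shCtrl and 0.14% in shZEB1.

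NEU1 was next. This gene (Entrez Gene 4758, chr6:31857659-31862821) encodes lysosomal sialidase, the enzyme that removes sialic acid from glycoproteins and glycolipids and whose loss causes sialidosis. NEU1 had 854 reads (FPKM 48.1) in the control and 352 reads (20.5) in the knockdown. That is 2.35-fold lower, with a read ratio of 0.427 (0.376 to 0.484) and a log2 ratio of -1.19. At or below this value were 120 of the measured genes and loci, or 0.978%. CD68 therefore did not stand alone beyond the 2-fold limit, but the next member after NEU1 was SMPD1 at -0.58, and the other 40 measured members lay between -0.58 and 0.37.

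The neighbours in that order can be told apart only in part. The read intervals of CD68, NEU1 and SMPD1 do not overlap one another. The next ones, SMPD1, FUCA1 and CTSD, have intervals that overlap, and from there on each member's interval overlaps that of the next except at the step from GLB1 to ARSB near the upper end.

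**Figure D2:**
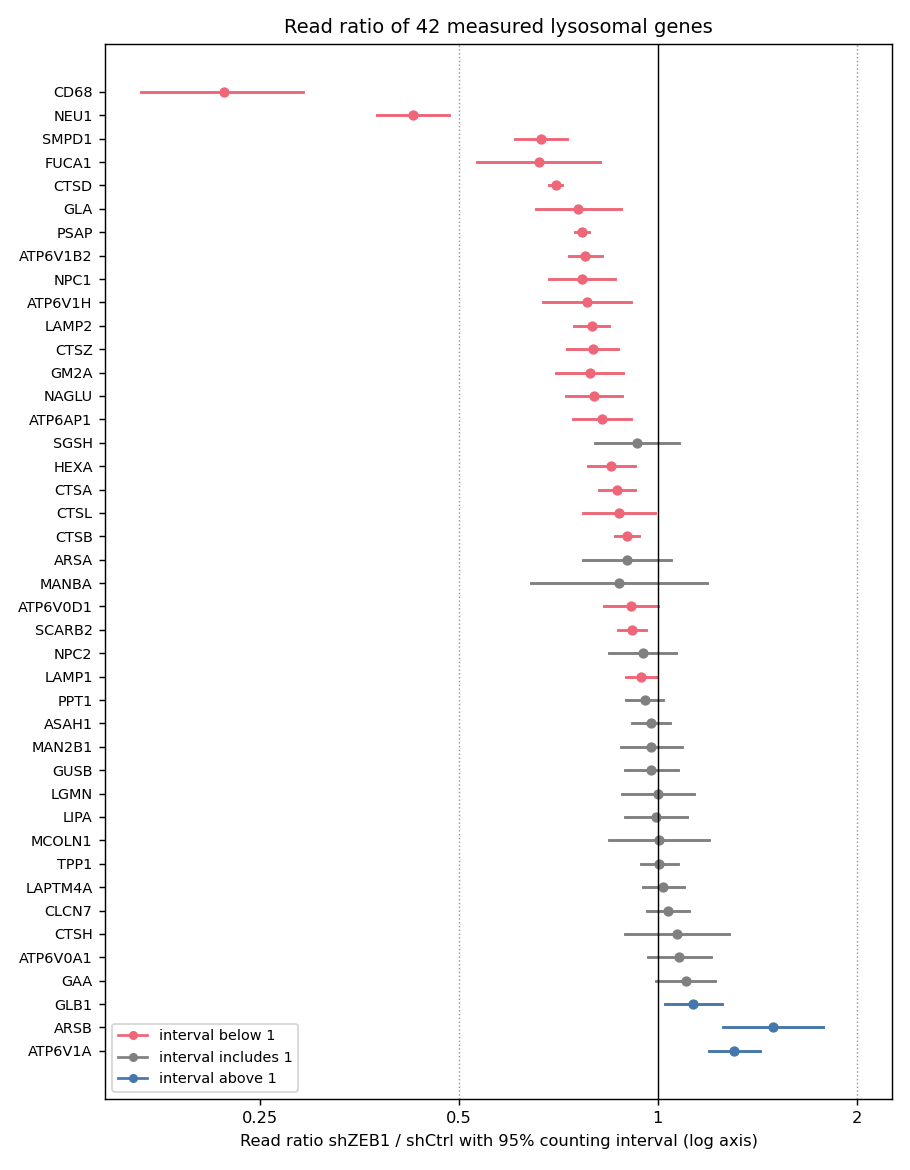
Read ratio of shZEB1 to shCtrl on a log axis for the 42 measured lysosomal genes, ordered by log2 ratio, with bars for the 95% counting interval and colours for intervals below, above or including 1. Dotted lines mark a ratio of 0.5 and 2, and CD68 (0.22) and NEU1 (0.427) are the members whose whole interval lies below 0.5.

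Below these 2 genes the differences were small, but they leaned to one side. Of the 42 measured members, 32 had a negative log2 ratio, which is 76.2% where 46.7% of all measured genes and loci did, and 10 had a positive one, where 53.1% of all did. The read interval lay below 1 for 22 members, or 52.4%, against a background of 21.4%. It lay above 1 for 3 members, or 7.14%, against a background of 27.9%. For the other 17 it included 1, so that it excluded 1 for 25 members, against 49.3% of all measured genes and loci. The median log2 ratio of the members was -0.15, and that of all measured genes and loci was 0.02. Lysosomal genes are more abundant than most, and deeper counts narrow an interval. Among the 6906 genes and loci with an FPKM of at least 10 in either library, the interval lay below 1 for 28.4% and above 1 for 29.4%, and their median was -0.01. Of the 39 members at that level, 22 were below and 2 above, with a median of -0.16. With TPM in place of FPKM the intervals lay below 1 for 19 members and above 1 for 6, against 17.2% and 33.3% of all measured genes and loci under TPM. With edgeR scaling of counts they lay below 1 for 23 and above 1 for 2, against 26.3% and 22.8%. DESeq2 size factors also gave 23 and 2, against 25.9% and 23.3%. The background thus leaned higher or lower with the scaling. Melanocyte markers moved too, in both directions. Of the 11 measured, 5 (45.5%) had an interval below 1 and 2 (18.2%) above 1, with a median log2 ratio of -0.08. The shares over all measured genes and loci are the 21.4% and 27.9% given above. All 11 reached an FPKM of 10 in both libraries, and at that level the shares are the 28.4% and 29.4%. GPR143 was higher at a read ratio of 1.21 (1.03 to 1.43) and RAB27A at 1.15 (1.01 to 1.32). The intervals of SOX10, MITF, TYRP1 and SLC45A2 included 1. On the low side PMEL was at a read ratio of 0.579, DCT 0.547, MC1R 0.631, TYR 0.836 and MLANA 0.861. The part of these marker differences in the lysosomal values was not tested.

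**Figure D3:**
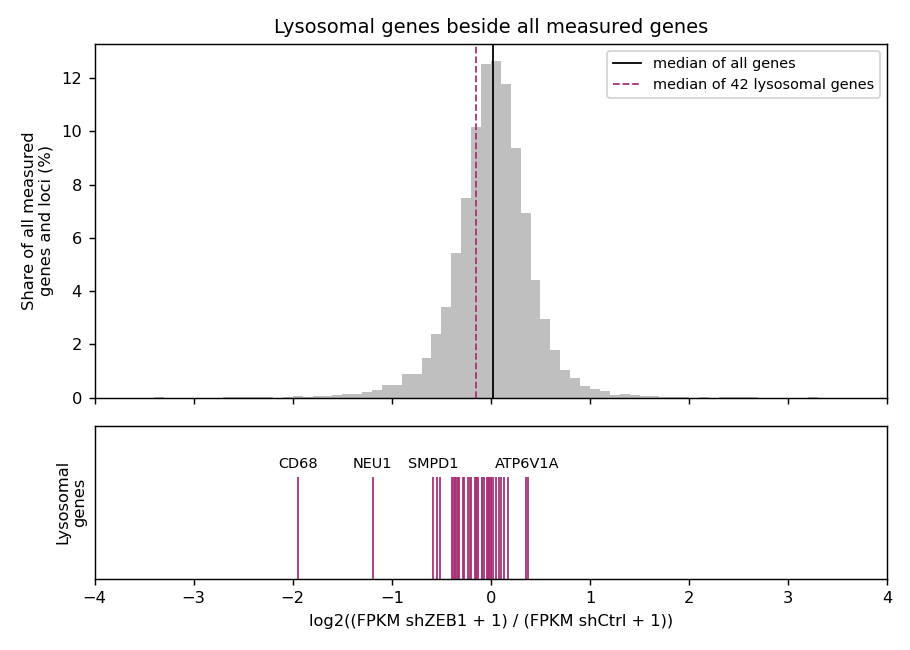
Upper panel, share in percent of all 12274 measured genes and loci per bin of 0.1 in log2 ratio, with the median of all genes (0.02, solid line) and of the 42 measured lysosomal genes (-0.15, dashed line). Lower panel, 1 line per lysosomal gene on the same axis, where CD68 at -1.94 and NEU1 at -1.19 lie apart from the block between -0.58 and 0.37.

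The 43 genes together took 0.922% of assigned reads in shCtrl and 0.764% in shZEB1, for a ratio of summed reads of 0.829 (0.82 to 0.838). CTSD and PSAP alone made up 46.2% of the members' summed FPKM in shCtrl and 41.3% in shZEB1. Without this pair the read ratio of the remaining members was 0.901 (0.889 to 0.913).

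Among the membrane proteins, CD68 was far from its relatives. LAMP1, the most abundant membrane glycoprotein of the set, had an FPKM of 123 in the control and 116 in the knockdown, a read ratio of 0.944 (0.894 to 0.998). LAMP2, which also serves as a receptor in chaperone-mediated autophagy, had 65.7 and 51.9, a read ratio of 0.795 (0.748 to 0.844). The other LAMP family genes were nearly silent: LAMP3 had 1 read in shCtrl and 12 reads in shZEB1, and LAMP5 had 1 read in shZEB1 and was absent from the shCtrl list. The intervals of LAMP1 and LAMP2 lie wholly above that of CD68.

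The other membrane proteins differed little. NPC1 exports cholesterol from the lysosome, and it had an FPKM of 17.0 in the control and 13.0 in the knockdown (read ratio 0.767, 0.684 to 0.86). SCARB2, the receptor that carries glucocerebrosidase to the lysosome, had 80.9 and 73.8 (0.913, 0.869 to 0.96). MCOLN1, the calcium channel of the lysosomal membrane, was level at 15.05 and 15.06 (1.00, 0.845 to 1.195). CLCN7, a chloride-proton exchanger, had 40.7 and 42.1, and LAPTM4A, a small membrane protein, had 104 and 105, with intervals that included 1. Over the 8 membrane proteins the median log2 ratio was -0.11. Under FPKM 5 (62.5%) were below 0, where 46.7% of all measured genes and loci were.

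The proteases were led by CTSD. Cathepsin D, the main aspartic protease of lysosomes, was the most abundant member, with 18020 reads (FPKM 989.6) in the control and 12200 reads (691) in the knockdown. CTSD (chr11:1752755-1763927) was 1.43-fold lower, with a read ratio of 0.701 (0.685 to 0.717). CTSB, an abundant cysteine protease, had an FPKM of 156 and 139.6 (0.898, 0.863 to 0.935). CTSZ, a carboxypeptidase, had 87.5 and 69.3 (0.797, 0.728 to 0.872).

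CTSA, a serine carboxypeptidase, had an FPKM of 84.4 in the control and 73.0 in the knockdown (0.867, 0.815 to 0.923), and CTSL had 39.4 and 34.2 (0.874, 0.77 to 0.991). TPP1, the tripeptidyl peptidase lost in a childhood neuronal ceroid lipofuscinosis, had 62.2 and 62.3. LGMN, an asparaginyl endopeptidase that matures cathepsins, had 29.2 and 28.8, and CTSH had 19.5 and 20.8, so that these last 3 intervals included 1. The 8 measured proteases had a median log2 ratio of -0.18.

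NEU1 can be set beside its partners, because sialidase is known to work in a complex with cathepsin A, which protects it, and with beta-galactosidase. CTSA was 0.867 of its shCtrl level by reads, as given above. GLB1, the beta-galactosidase gene, was higher in shZEB1, at an FPKM of 34.3 and 38.9 (1.13, 1.03 to 1.25). NEU1, at 0.427, had an interval below those of both partners.

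The other glycosidases were mixed. FUCA1, the fucosidase gene, had an FPKM of 12.5 in the control and 8.24 in the knockdown (read ratio 0.661, 0.533 to 0.818). GLA, the galactosidase lost in Fabry disease, had 36.5 and 27.5 (0.758, 0.654 to 0.878), NAGLU of heparan sulfate breakdown 39.4 and 31.4 (0.80, 0.725 to 0.882), and HEXA of ganglioside breakdown 62.3 and 52.8 (0.85, 0.783 to 0.923). GUSB (47.9 and 47.1), MAN2B1 (26.1 and 25.5), MANBA (3.64 and 3.18) and GAA, the acid glucosidase lost in Pompe disease (23.5 and 25.7), had intervals that included 1. Of the 10 glycosidases 5 (50%) had an interval below 1 and GLB1 (10%) an interval above 1, with a median log2 ratio of -0.19. An FPKM of 10 in both libraries was reached by 8 of them. Among genes and loci with an FPKM of at least 10 in either library the shares were 28.4% and 29.4%. Over all measured genes and loci these shares were 21.4% and 27.9%.

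The 3 sulfatases had a median FPKM of 9.88 in shCtrl and 8.78 in shZEB1, the lowest of the 7 roles. ARSB, which acts on dermatan sulfate, was higher in shZEB1, at an FPKM of 4.70 and 6.28 from 222 and 320 reads (1.49, 1.25 to 1.78). ARSA, the enzyme lost in metachromatic leukodystrophy, had 9.88 and 8.78, and SGSH of heparan sulfate breakdown had 13.5 and 10.99, with intervals that included 1. The gene length used by the authors was 11.3% longer for ARSB and 13.6% longer for SGSH in the shZEB1 file, so that FPKM and reads part for these 2 genes: the FPKM ratio of SGSH was 0.815 and its read ratio 0.93. No other member's length moved by more than 5%.

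In lipid breakdown SMPD1 stood below the others. Acid sphingomyelinase, its product, makes ceramide from sphingomyelin. SMPD1 (chr11:6390474-6394996) had an FPKM of 57.1 in the control and 37.9 in the knockdown, a read ratio of 0.666 (0.607 to 0.729). ASAH1, the ceramidase one step later, had 76.2 and 74.2 (0.977, 0.913 to 1.05), LIPA, the acid lipase, 29.02 and 28.6, and PPT1, a palmitoyl thioesterase, 92.2 and 87.75, with intervals that included 1. The intervals of SMPD1 and ASAH1, consecutive enzymes of the same route, do not overlap.

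The activators and carriers of lipids were lower or near 1. PSAP encodes prosaposin, the precursor of the saposins that present sphingolipids to their hydrolases, and was second in abundance. PSAP had 16601 reads (FPKM 682) in the control and 12312 reads (522) in the knockdown (0.768, 0.75 to 0.786). GM2A, the activator that presents GM2 ganglioside to hexosaminidase, had 20.9 and 16.4 (0.789, 0.701 to 0.887). NPC2, which hands cholesterol to NPC1, had 81.2 and 76.3, with an interval that included 1.

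Subunits of the proton pump moved in both directions. ATP6V1A, the catalytic subunit of the cytosolic V1 sector, was higher in shZEB1 and had the highest log2 ratio of the members (0.37), at an FPKM of 22.9 and 29.9 (1.31, 1.197 to 1.43). ATP6V1B2, its partner in the same ring, was lower, at 106 and 81.9 (0.777, 0.734 to 0.823). ATP6V1H, a regulatory subunit, had 20.9 and 16.3 (0.782, 0.67 to 0.912), and ATP6AP1, an accessory protein, 49.3 and 40.5 (0.824, 0.745 to 0.911). In the membrane sector V0, ATP6V0D1 had 67.4 and 61.1 with an interval that ended just below 1, and ATP6V0A1 had 17.9 and 19.3 with one that included 1. The 14 other measured V-ATPase subunits had a median log2 ratio of -0.01, and under other scalings their median went from -0.03 to 0.05. Of the 14, 7 were below and 7 above 0, where 46.7% and 53.1% of all measured genes and loci were. ATP6V1F (220.04 and 158.5), ATP6V1E1 (136 and 106) and ATP6V0C (170.3 and 134) lay lowest, while ATP6V1G1 (52.7 and 66.5) had an interval above 1.

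Lysosomal genes outside the 43 were set beside them, from lists of related genes. Like the 43, these lists were chosen with earlier results of these data known, so they are not an independent check. Of 33 other measured hydrolases, 12 (36.4%) had an interval below 1 and 5 (15.2%) above 1, with a median log2 ratio of -0.15. Over all measured genes and loci these shares were 21.4% and 27.9%. They were 28.4% and 29.4% among those with an FPKM of at least 10 in either library, and 23 of the 33 hydrolases reached 10 in both libraries. ACP5, an acid phosphatase, had an FPKM of 97.2 in the control and 64.3 in the knockdown (0.661, 0.605 to 0.723). IDUA, the iduronidase gene, lay the other way at 3.40 and 6.83 (2.23, 1.67 to 3.01), and NAAA had 1.94 and 3.29. Of 22 other measured membrane proteins, 7 (31.8%) were below and 3 (13.6%) above 1, against the same 2 backgrounds, with a median of -0.12. An FPKM of 10 in both libraries was reached by 11 of the 22. On the low side the shares of both lists were nearer to the 28.4% than to the 21.4%. MFSD12, a transporter of cysteine into lysosomes and melanosomes, was lower at 540.5 and 314 (0.587, 0.569 to 0.606), and SLC17A5, the sialic acid exporter, at 22.7 and 14.9, whereas SLC36A1, an amino acid exporter, was higher at 3.91 and 7.19. In both lists 0 genes met the 2-fold rule, where 1.61% of all measured genes and loci were lower and 0.937% higher. At such shares lists of this length would hold few. IDUA was 2.01-fold higher by FPKM, but its log2 ratio with the pseudocount was 0.83.

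Genes that deliver enzymes to the lysosome leaned the other way. Of 10 measured, 6 (60%) had an interval above 1 and 2 (20%) below, where 27.9% and 21.4% of all measured genes and loci did. Among those with an FPKM of at least 10 in either library the shares were 29.4% and 28.4%. An FPKM of 10 in both libraries was reached by 9 of the 10. Their median log2 ratio was 0.18 and stayed between 0.13 and 0.24 under the other scalings. GGA3, a sorting adaptor, had an FPKM of 10.3 and 16.01 (1.57, 1.36 to 1.80), and GNPTAB, which builds the mannose 6-phosphate tag, 31.9 and 42.3 (1.33, 1.24 to 1.42). SUMF1, which activates all sulfatases, was lower at 6.00 and 3.28 (0.55, 0.394 to 0.761).

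Of the transcription factors of lysosomal genes, the activators MITF, TFE3 and TFEB had intervals that included 1. MITF had an FPKM of 55.1 in the control and 52.2 in the knockdown (0.949, 0.892 to 1.01), TFE3 had 11.5 and 12.5 (1.09, 0.937 to 1.27), and TFEB had 40 and 37 reads (0.958, 0.596 to 1.54). TFEC was in neither file. ZKSCAN3, a repressor of lysosomal genes, was higher at an FPKM of 1.73 and 2.67 (1.502, 1.10 to 2.06). Genes of the nutrient sensor on the lysosomal surface were more often lower than higher. The 3 with the lowest log2 ratio in the list were RRAGC with 16.03 and 10.3 (0.643, 0.544 to 0.759), RRAGA with 66.4 and 45.0 (0.681, 0.614 to 0.755), and FLCN, which acts on these GTPases, with 11.5 and 7.60 (0.702, 0.583 to 0.845). RPTOR (0.68, 0.622 to 0.743), LAMTOR2 (0.767, 0.642 to 0.915), MTOR (0.812, 0.754 to 0.873) and LAMTOR5 (0.813, 0.712 to 0.929) also had intervals below 1. The intervals of RRAGB, RRAGD, LAMTOR1, LAMTOR3, LAMTOR4 and FNIP1 included 1, and FNIP2, a partner of FLCN, was higher at 9.43 and 12.3 (1.31, 1.16 to 1.47). Over the 18 measured regulators the median was -0.10, with 7 intervals (38.9%) below and 2 (11.1%) above 1. Over all measured genes and loci these shares were 21.4% and 27.9%.

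Beyond the lysosome's own parts, RAB7A was the largest difference in the lists of fusion and autophagy genes. This GTPase of late endosomes had 5118 reads (FPKM 268) in the control and 1907 reads (103) in the knockdown (0.386, 0.366 to 0.407), and was 2-fold lower. The other 10 genes of fusion and positioning did not meet the rule, PLEKHM2 (32.8 and 26.7) among them, and the list median was -0.06. In autophagy WIPI1, a phosphoinositide-binding protein of early autophagosomes, had 59.8 and 27.5 (0.485, 0.435 to 0.541), and OPTN, an autophagy receptor, had 19.4 and 8.68 (0.446, 0.382 to 0.518). UVRAG had 6.80 and 3.93 (0.579, 0.477 to 0.701). In the other direction ULK1, the kinase that starts autophagy, had 5.84 and 9.02 (1.55, 1.32 to 1.81), and NBR1, BECN1, ATG9A and WIPI2 had intervals above 1. Of the 18 autophagy genes 5 (27.8%) had an interval below 1 and 5 (27.8%) above 1. Over all measured genes and loci these shares were 21.4% and 27.9%. The median of the autophagy genes was 0.02, and it went from -0.05 to 0.07 with the scaling. Of the cystatins, which inhibit cysteine cathepsins, CSTB had 282 and 185 (0.664, 0.62 to 0.711), while CST7 had 8 reads and 1 read, and CST6 had 5 reads in shZEB1 and was absent from the shCtrl list.

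**Figure D4:**
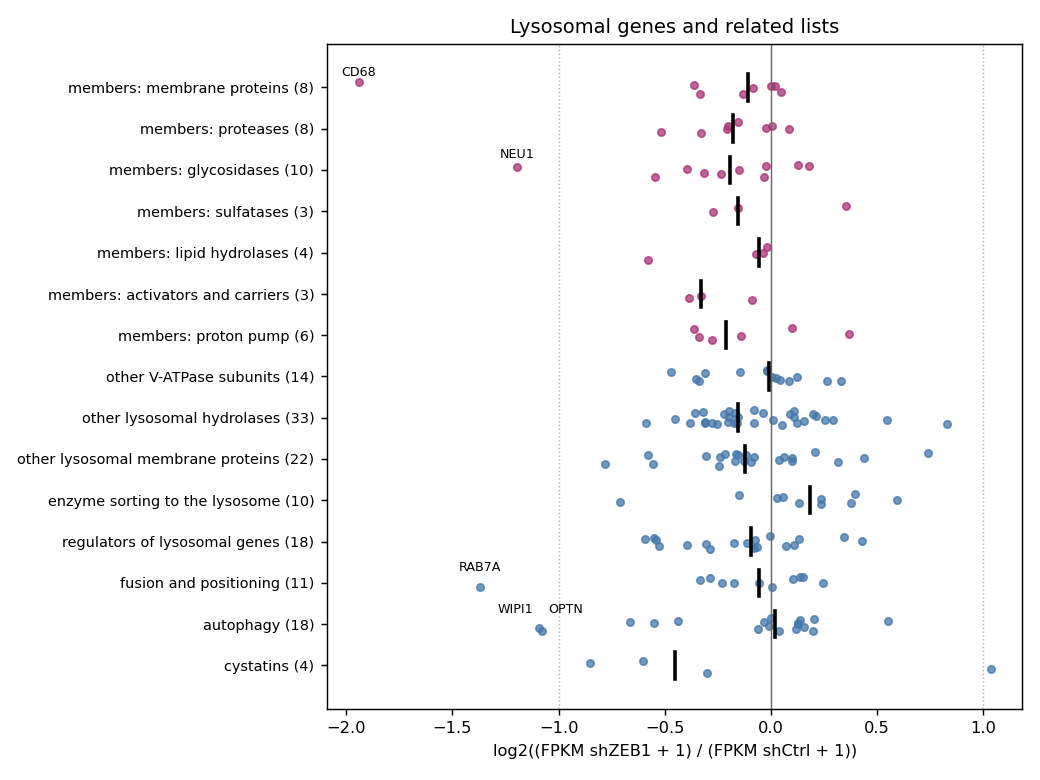
Log2 ratio of each measured gene, by role for the 43 lysosomal genes (first 7 rows) and by list for related genes, with the number measured in brackets and a black bar at the median. Genes at or below -1 are named: CD68, NEU1, RAB7A, WIPI1 and OPTN, and the delivery genes have a median above 0 (0.18).

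Because CD68 is used to count macrophages, markers of those cells were read beside it. Of 19 macrophage markers 9 were in neither file, among them PTPRC, CD163, TYROBP, C1QA and CYBB, and only FCER1G, LYZ and LAPTM5 were measured. The summed FPKM of the 19 was 5.54 in shCtrl and 7.08 in shZEB1, and without LYZ, left out after its value was seen, the sum of the other 18 was 3.29 and 2.61. LYZ, the lysozyme gene, had 28.65 and 55.22 expected reads and an interval above 1, FCER1G and LAPTM5 had intervals that included 1, and CSF1R, the receptor that defines the lineage, had 3 reads and 1 read. The part of such cells in the CD68 value was not tested. In bulk RNA, fewer cells of a type and less RNA per cell cannot be told apart.

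How reads were shared out between genes bears on CD68 directly. Expected counts that are not whole mark genes whose reads were divided with another model, and 9 of the 43 members had them. ARSB and ATP6V1A, which had intervals above 1, were among the 9. Of the 33 measured members with whole counts, 18 (54.5%) had an interval below 1 and 1 (3.03%) above 1. Over all measured genes and loci these shares were 21.4% and 27.9%. CD68 was one of the 9, at 296.05 and 63.3, and NEU1 was not. Its immediate neighbours EIF4A1 (an RNA helicase of translation, 632 bases away) and MPDU1 (of glycan synthesis, 1536 bases away) also had counts that were not whole. Summed over these 3 genes the expected counts came to 15972.00 in shCtrl and 13246.99 in shZEB1, whole to within rounding. CD68 held 1.85% of that sum in shCtrl and 0.478% in shZEB1. The gene EIF4A1 had far more reads, with an FPKM of 903 and 779 (0.872, 0.851 to 0.893), and MPDU1 had 54.0 and 45.9 (0.855, 0.767 to 0.952). The difference of 233 expected reads in CD68 is small beside the reads of EIF4A1, and the part of read sharing in the CD68 value was not tested. The annotation also places exons of 2 other transcribed loci over those of CD68, 1 on each strand, and 0 over those of NEU1.

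Within 25 kb of CD68, 7 other genes were listed, and the 4 with the most reads had read ratios below 1. EIF4A1 and MPDU1 are given above. SENP3 had 0.911 (0.83 to 1.00) and FXR2 0.875 (0.79 to 0.968), so that the intervals of EIF4A1, MPDU1 and FXR2 lay below 1. TNFSF12, TNFSF13 and SOX15, with 8 to 19 reads, had intervals that included 1. The interval of CD68, which ended at 0.29, lay below those of all 7.

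**Figure D5:**
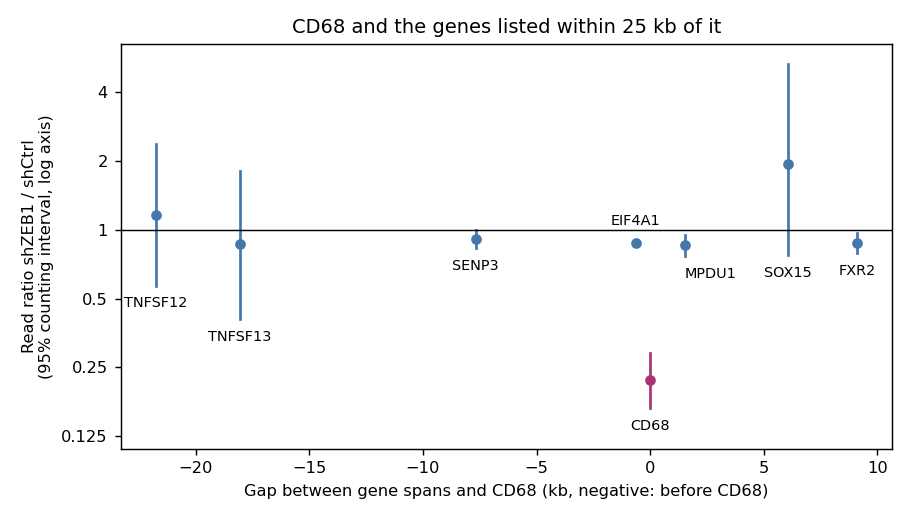
Read ratio of shZEB1 to shCtrl with its 95% counting interval on a log axis, against the distance in kb from the gene span of CD68, for CD68 and the 7 genes listed within 25 kb. CD68 lies at 0.22, while EIF4A1 (0.872), MPDU1 (0.855), SENP3 (0.911) and FXR2 (0.875) lie between CD68 and 1.

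Promoters are printed for 4 members: CD68 and NEU1, the 2-fold lower genes, CTSD, the most abundant one, and MCOLN1, which was level. Each sequence is 300 bases of RefSeq on GRCh38.p14, 5′ to 3′ on the gene's strand, from 250 bases before the gene start to 50 bases from it: chr17:7579388-7579687 (plus) for CD68, chr6:31862772-31863071 (minus) for NEU1, chr11:1763878-1764177 (minus) for CTSD and chr19:7522374-7522673 (plus) for MCOLN1. Capitals mark CACGTG, the palindromic core of the lysosomal element, and would mark CAGGTG or CACCTG, the E-box that ZEB1 is known to bind, which has no match in these 4.
CD68: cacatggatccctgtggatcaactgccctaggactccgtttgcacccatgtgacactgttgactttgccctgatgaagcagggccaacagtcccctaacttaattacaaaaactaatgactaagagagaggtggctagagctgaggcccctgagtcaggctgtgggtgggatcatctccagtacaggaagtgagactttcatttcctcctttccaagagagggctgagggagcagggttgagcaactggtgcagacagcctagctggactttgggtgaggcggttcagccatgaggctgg
NEU1: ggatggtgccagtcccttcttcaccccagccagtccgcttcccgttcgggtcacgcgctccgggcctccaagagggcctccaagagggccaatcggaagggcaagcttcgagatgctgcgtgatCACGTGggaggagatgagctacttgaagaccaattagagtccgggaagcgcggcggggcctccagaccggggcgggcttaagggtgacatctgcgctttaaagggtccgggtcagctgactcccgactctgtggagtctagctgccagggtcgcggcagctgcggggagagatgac
CTSD: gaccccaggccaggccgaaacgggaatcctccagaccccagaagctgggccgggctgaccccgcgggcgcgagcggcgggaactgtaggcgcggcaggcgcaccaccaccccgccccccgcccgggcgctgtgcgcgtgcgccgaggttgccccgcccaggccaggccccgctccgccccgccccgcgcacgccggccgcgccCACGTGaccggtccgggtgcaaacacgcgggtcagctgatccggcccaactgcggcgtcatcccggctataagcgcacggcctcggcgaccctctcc
MCOLN1: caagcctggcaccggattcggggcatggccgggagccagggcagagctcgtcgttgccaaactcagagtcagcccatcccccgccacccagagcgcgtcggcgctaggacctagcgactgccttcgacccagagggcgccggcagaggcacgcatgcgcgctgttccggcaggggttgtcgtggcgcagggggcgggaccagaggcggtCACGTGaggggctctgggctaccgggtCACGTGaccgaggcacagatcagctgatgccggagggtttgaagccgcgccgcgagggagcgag

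The CD68 promoter held no CACGTG and 2 CG pairs in 300 bases, at 53.3% G and C. NEU1 held CACGTG 126 bases before the start and 22 CG pairs, CTSD held it 47 bases before and 43 CG pairs, and MCOLN1 held it at 41 and 14 bases before and 32 CG pairs. Promoters of 29 of the 43 members were in the table used. CACGTG was in 9 of the 29, or 31.0%, and in 8.77% of all 27305 genes in that table. NEU1, CTSD and MCOLN1 are all among these 9. Most of the 29 lacked it, as CD68 did. Among these, TPP1, LIPA, CTSH and ATP6V0A1 had read intervals that included 1, and FUCA1, CTSZ and ATP6AP1 had intervals below 1. The part of this element in the read ratios was not tested. The same core flanked by GT before and AC after it was in GAA and MCOLN1, and in 0.421% of all genes. CAGGTG or CACCTG was in 9 of the 29 and in 24.1% of all genes, and in 0 promoters did a match overlap one of CACGTG. Members with CACGTG lay at both ends of the order, from NEU1 at -1.19 to ARSB at 0.35. A match is a run of letters and not a bound site.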

How the data were processed

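Expression was measured in 1 shCtrl and 1 shZEB1 library. The authors worked on hg38 with RSEM 1.2.8, Bowtie2 2.2.5, HISAT2 2.1.0 and DESeq, per the submitters' processing notes. The role, order and settings of each, strand included, are not stated there. Per the file headers, the authors deposited an expected count (an estimate, not whole where models share reads), an FPKM value and a gene length per gene. Identifiers were matched to RefSeq symbols of GRCh38.p14 for 15183 of 15217 numeric ones, and a gene not listed was entered at 0.

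From the deposited FPKM the log2 ratio was computed with a pseudocount of 1, which understates differences of low genes. Expected counts were rounded for the 95% Clopper-Pearson interval of the read ratio. It covers counting error only, and PCR reads are not independent molecules. Measured genes had an FPKM of at least 1 in either library, and the 2-fold rule needed the interval too. Exon overlaps came from GENCODE release 29. Only edgeR 4.0.16 and DESeq2 1.42.0 scaling factors were used, since 1 library per group allows no dispersion. The members and lists were chosen with earlier results of these data known. Named were all members, and from each related list the genes meeting the rule and up to 3 with the largest absolute log2 ratio; 1 gene that this rule names is not reported here, and further list genes were named after their values were seen. Alternatives were a pseudocount of 0.1, other filters, scalings (median ratio, TPM, edgeR, DESeq2), a 1.5-fold limit and 99% intervals. Python 3.11.15, SciPy 1.17.1 and R 4.3.3 were used.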

Additional observations from a re-analysis of the deposited data

How the results depend on the processing

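CD68 and NEU1 were the only members counted as 2-fold lower, and 0 were higher, under each of the 10 alternatives. The log2 ratio of CD68 went from -1.94 to -2.22 (edgeR scaling of counts), and its difference from the median of the other members from -1.79 to -2.03. The edgeR and DESeq2 settings put scaled read counts in place of FPKM, with the same pseudocount of 1. They therefore differ from the main values in unit as well as in scaling. The member median stayed below 0, from -0.11 with TPM to -0.20 with edgeR scaling, and its difference from the median of all measured genes from -0.16 to -0.19. Under the scalings, 27 (TPM) to 36 (edgeR) of 42 members lay below 0, against 32 as reported, and no role's median changed sign. With TPM the number of members whose interval lay above 1 went from 3 to 6, while that of all measured genes went from 3425 to 4088 (33.3%). TPM raised the median of all measured genes to 0.08. The background moved more. All measured genes meeting the 2-fold rule went from 198 lower and 115 higher to 332 and 294 with edgeR-scaled counts in place of FPKM. They went to 222 and 239 with TPM, and to 294 and 311 with a pseudocount of 0.1. No paired analysis was possible because each group held 1 library. Depth limits CTSK (9 and 7 reads) most, while measured members had at least 63 reads, and no replicate error was available for any value.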
